A study of Mus musculus with 8 samples.

Results

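Angiotensin, adrenergic and endothelin receptors are G protein-coupled receptors through which hormones and transmitters act on vascular tone, growth and secretion. Here 9 of them were followed in bulk RNA-seq of Lewis lung carcinoma (LLC) tumors: Agtr1a and Agtr2, Adra1a, Adra1b, Adra1d, Adra2a and Adrb1, and Ednra and Ednrb. They are 9 of the 55487 genes in the count table, and all 9 were found by symbol. Agtr2 and Adra1b were picked because their levels were lower in Ago2 knock-out than in wild-type tumors, so that difference is given for them as a description without a test. The other 7 receptors are relatives brought in for context.

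LLC is a mouse lung cancer line. Its cells were placed under the skin of C57BL/6J mice, in the study's methods females aged 6 to 8 weeks, and the tumors were taken on day 12. The 8 mice gave 8 libraries, 4 from wild-type LLC tumors and 4 from tumors labelled Ago2 knock-out, called ΔAgo2-labelled below. The knock-out cells carried a lentiviral CRISPR guide and Cas9, were selected with puromycin, and were engrafted as a single clone, and the mice themselves were not edited. Therefore the genotype cannot be told apart from what is particular to that clone, and each tumor also holds the host's blood vessels, fibroblasts and immune cells. In bulk tissue, fewer cells of a type and less RNA per cell cannot be told apart.

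Library totals ran from 7903288 counts in wild-type tumor 4 to 268564145 in ΔAgo2-labelled tumor 4, so low genes were measured least precisely in the former. Ago2 transcript did not check the labels, since it was no lower in ΔAgo2-labelled tumors, at 118.3, 354.7, 215 and 270.1 CPM against 129.9, 195, 151.3 and 138.5 CPM in wild-type tumors (log2 fold change 0.64 ± 0.30 SE, adjusted p = 0.205 in edgeR's test). The study assessed Ago2 protein in the wild-type and ΔAgo2 LLC cells by Western blot, and protein was not measured in these data. Lung epithelial Nkx2-1 and Sftpa1 were at 0 counts in all 8 libraries, while the summed level of the 8 epithelial markers, carried by the keratins Krt8 and Krt18, was 497.4 to 1249 CPM (counts scaled to library size) in wild-type and 714.3 to 1240 CPM in ΔAgo2-labelled tumors. Wild-type tumor 3 stood apart with 4040 CPM of 10 skeletal muscle markers, against 286.8 to 561.7 CPM in the other wild-type tumors and 54.7 to 236 CPM in the ΔAgo2-labelled ones. Results that turn on that tumor are given below with and without it.

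Angiotensinogen is cut by renin and angiotensin-converting enzyme (Ace) to angiotensin II, which constricts vessels through Agtr1a. Agtr2 binds the same peptide, often opposes Agtr1a, and is known for high levels in fetal tissue and low levels in most adult tissues. Noradrenaline and adrenaline act through alpha-1 receptors (Adra1a, Adra1b, Adra1d), which couple to Gq and phospholipase C, alpha-2 receptors such as Adra2a, which couple to Gi/o, and beta receptors, which couple to Gs and adenylate cyclase. Endothelin binds Ednra, typical of smooth muscle, pericytes and fibroblasts, and Ednrb, typical of endothelium and neural crest derivatives.

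The promoter windows of the 2 receptors picked on their values are shown because both transcripts were low in the same 4 tumors. Each window is 300 bases long and runs from 250 bases before to 50 after a transcription start annotated by RefSeq on GRCm38.p6. Sequences read 5′ to 3′ on the gene's strand, and capitals mark CG dinucleotides and the letters TATAA. Agtr2 lies on chrX:21484374-21484673 (plus strand), and the 2 annotated starts of Adra1b lie on chr11:43901188-43901487 and chr11:43836440-43836739 (minus strand).
Agtr2: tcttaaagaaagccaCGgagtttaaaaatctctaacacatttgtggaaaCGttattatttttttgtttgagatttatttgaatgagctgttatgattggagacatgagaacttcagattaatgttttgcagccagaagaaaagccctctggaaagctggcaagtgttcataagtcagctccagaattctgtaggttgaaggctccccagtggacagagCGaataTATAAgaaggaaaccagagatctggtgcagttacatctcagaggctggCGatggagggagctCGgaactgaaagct
Adra1b, window 1: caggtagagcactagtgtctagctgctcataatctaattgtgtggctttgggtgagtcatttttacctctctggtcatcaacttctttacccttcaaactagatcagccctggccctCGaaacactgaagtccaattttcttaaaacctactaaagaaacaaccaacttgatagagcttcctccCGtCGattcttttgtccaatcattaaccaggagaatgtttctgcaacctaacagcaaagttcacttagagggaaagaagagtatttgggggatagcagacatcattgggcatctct
Adra1b, window 2: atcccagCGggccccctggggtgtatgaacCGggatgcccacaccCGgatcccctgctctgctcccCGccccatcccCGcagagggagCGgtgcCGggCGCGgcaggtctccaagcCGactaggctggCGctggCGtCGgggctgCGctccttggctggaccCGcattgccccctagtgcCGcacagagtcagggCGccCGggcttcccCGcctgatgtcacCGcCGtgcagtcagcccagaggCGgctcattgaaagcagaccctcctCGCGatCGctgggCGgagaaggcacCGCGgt

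The 3 windows are unlike in composition. The Agtr2 window held 5 CG dinucleotides and 41.3% G and C, and its only TATAA began 26 bases before the start. Window 1 of Adra1b held 3 CG and 42.3% G and C, whereas window 2, the downstream start, held 28 CG and 71.3% G and C, with no TATAA in either. Among 32851 such windows the median was 7 CG, and 24.9% held TATAA on either strand. Of the context receptors, the windows of Adra2a and Adrb1 held 28 CG each, that of Ednrb 15 and that of Ednra 8. The Adra2a window also held 1 TATAA, which began 29 bases before the start, and those of Adrb1, Ednra and Ednrb held none. Windows were at hand for 6 of the 9 receptors, and not for Agtr1a, Adra1a and Adra1d. Gene counts do not separate the starts, so the data do not show which start of Adra1b the tumors used.

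The angiotensin receptors are taken first. Agtr2 (ENSMUSG00000068122.10, GRCm38 chrX:21484544-21489164, plus strand) was measured in wild-type tumors 1 to 4 at 4.01, 2.48, 4.31 and 1.15 CPM, and in the same order of ΔAgo2-labelled tumors at 0.0821, 0.123, 0.0299 and 0.130 CPM. These rest on 214, 52, 205 and 8 counts against 4, 14, 1 and 37 counts. Every ΔAgo2-labelled tumor was below every wild-type tumor, as the choice of the gene had fixed. The mean was 2.99 ± 1.47 CPM (SD, n = 4) in wild-type and 0.0911 ± 0.0459 CPM (SD, n = 4) in ΔAgo2-labelled tumors, that is 29.9-fold lower in the fit (log2 fold change -4.90 ± 0.55 SE). The deepest library was among the low ones, and the shallowest was the lowest of the wild-type group.

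Agtr1a (ENSMUSG00000049115.15, chr13:30336441-30382867, plus strand), the receptor through which angiotensin II raises blood pressure, had no such separation. It was at 0.487, 0.381, 1.89 and 0.717 CPM in wild-type and at 0.923, 0.544, 0.806 and 0.634 CPM in ΔAgo2-labelled tumors. The groups overlapped, with wild-type tumor 3 highest of all 8. Its log2 fold change was -0.32 ± 0.52 (SE, 95% interval -1.46 to 0.83, adjusted p = 0.719). Leaving out wild-type tumor 3 turned it to 0.53 (adjusted p = 0.452).

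The balance of the 2 angiotensin receptors was compared on TPM, a level scaled by gene length and library size. Agtr2 made up 87.3, 84.5, 65.6 and 57.0% of the summed Agtr1a and Agtr2 TPM in wild-type tumors 1 to 4, against 6.41, 16.3, 3.19 and 14.4% in ΔAgo2-labelled tumors 1 to 4. Thus Agtr2 was the larger of the pair in all 4 wild-type tumors and Agtr1a in all 4 ΔAgo2-labelled tumors. The share holds the gene picked on its values and is given without a test.

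Among adrenergic receptors, Adra1b (ENSMUSG00000050541.14, chr11:43774606-43901210, minus strand), a Gq-coupled receptor of smooth muscle, liver and brain, was picked on its values. It was at 1.12, 1.81, 1.16 and 1.43 CPM in wild-type tumors and at 0.0616, 0.0965, 0.0896 and 0.109 CPM in ΔAgo2-labelled tumors. The counts were 60, 38, 55 and 10 against 3, 11, 3 and 31. The groups did not overlap, as the choice of the gene had fixed, with means of 1.38 ± 0.32 and 0.0890 ± 0.0199 CPM (SD, n = 4 each). With 3 counts each in ΔAgo2-labelled tumors 1 and 3, the spread of that group is not well measured. In the fit Adra1b was 14.6-fold lower (log2 fold change -3.87 ± 0.41 SE). Unlike Agtr2, its level in the shallowest wild-type library was within the range of the other 3.

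Adra1d (ENSMUSG00000027335.9, chr2:131545850-131562283, minus strand), the alpha-1 receptor known from large arteries, was not chosen on its values. It was at 0.843, 2.05, 0.967 and 1.15 CPM in the wild-type group, from 45, 43, 46 and 8 counts. In the ΔAgo2-labelled group it was at 0.328, 0.0877, 0.0299 and 0.193 CPM, from 16, 10, 1 and 55 counts. The groups did not overlap. The mean fell from 1.25 ± 0.55 to 0.160 ± 0.131 CPM (SD, n = 4 each), which was 7.58-fold lower in the fit (log2 fold change -2.92 ± 0.61 SE, adjusted p = 0.0311 in edgeR's quasi-likelihood test). Of the 7 context receptors 5 passed the count filter, and Adra1d was the only 1 of those 5 to be called. Over all 16061 genes tested 3.49% were called in either direction, 2.12% lower and 1.36% higher, so 1 of 5 is too few to set the context receptors apart from other genes.

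The call for Adra1d was not firm. It was lost when wild-type tumor 2 or 4, or ΔAgo2-labelled tumor 2, 3 or 4, was left out, with adjusted p from 0.0590 to 0.120, while the log2 fold change stayed between -3.38 and -2.56 whichever tumor was removed. Across all genes, log2 fold change fell with the G and C content of the transcript (Spearman's rho = -0.561, across genes, which are not independent replicates). Adra1d is G and C rich, at the 99.5th percentile of genes tested, and with that trend removed it was at -2.07 (adjusted p = 0.0560). Adra1b at the 74.8th and Agtr2 at the 4.06th percentile then had log2 fold changes of -3.50 and -5.59.

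Adra2a (ENSMUSG00000033717.6, chr19:54044151-54048982, plus strand), a Gi/o-coupled receptor that restrains transmitter release, was at 1.57, 2.43, 2.96 and 3.01 CPM in wild-type and at 1.87, 1.45, 1.43 and 1.41 CPM in ΔAgo2-labelled tumors. Only wild-type tumor 1 and ΔAgo2-labelled tumor 1 crossed between the groups. Its log2 fold change was -0.68 ± 0.33 (SE, 95% interval -1.41 to 0.04, adjusted p = 0.207).

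Adra1a (ENSMUSG00000045875.13, chr14:66635251-66771168, plus strand), the third alpha-1 receptor, and Adrb1 (ENSMUSG00000035283.5, chr19:56722199-56733113, plus strand), the beta receptor of heart muscle, were under the count filter and were not tested in the main comparison. In a fit with no filter their log2 fold changes were -0.70 (adjusted p = 0.754) and 1.40 (adjusted p = 0.334). Adra1a had 2 counts in all in wild-type and 4 in ΔAgo2-labelled tumors. Adrb1 had 5, 0, 4 and 0 counts in wild-type tumors and 11, 23, 5 and 27 in ΔAgo2-labelled tumors, or 0 to 0.0937 CPM against 0.0945 to 0.226 CPM. These Adrb1 ranges do not overlap, but a count of 0 allows up to 0.143 CPM in wild-type tumor 2 and 0.430 CPM in wild-type tumor 4, so a difference was not detectable at this depth.

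**Figure D1:**
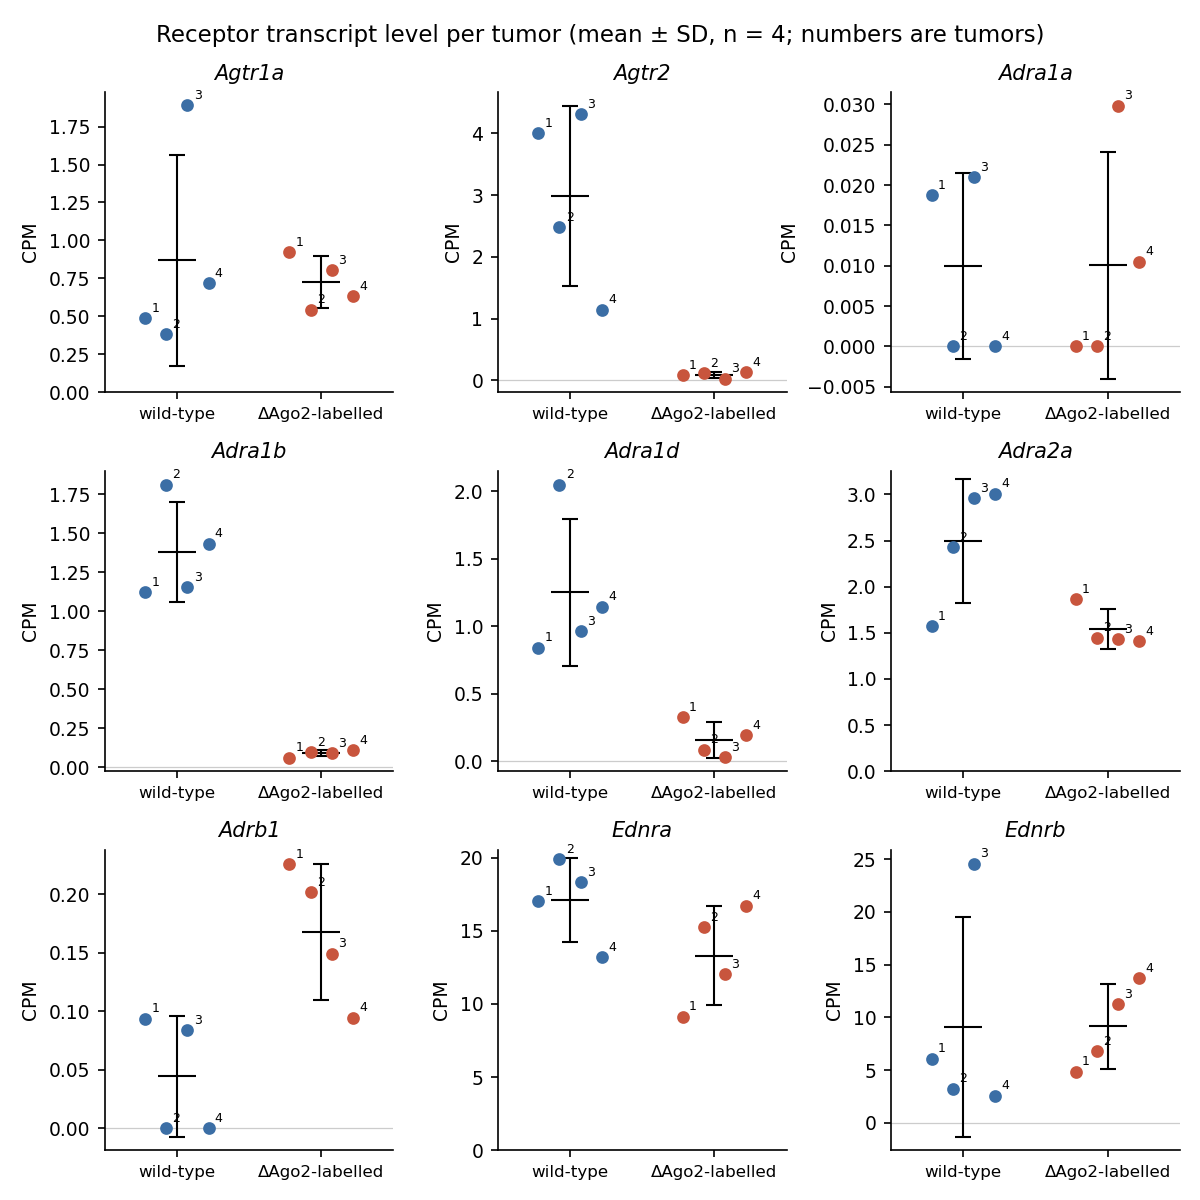
Level of each of the 9 receptors in CPM (linear axes, a scale of its own for each gene) in the 4 wild-type and 4 ΔAgo2-labelled tumors, where points are tumors, digits their numbers and bars the mean ± SD. Agtr2, Adra1b and Adra1d separate the groups with ΔAgo2-labelled tumors near 0, while Agtr1a, Ednra and Ednrb overlap and wild-type tumor 3 is highest for Agtr1a and Ednrb.

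Taken per length, the make-up of alpha adrenergic receptor transcripts differed between the groups. Of the summed TPM of 6 alpha receptors (the 3 alpha-1 receptors, Adra2a, Adra2b and Adra2c), the alpha-1 receptors took 70.3, 76.3, 57.6 and 62.2% in wild-type tumors 1 to 4, against 32.3, 19.3, 12.8 and 30.6% in ΔAgo2-labelled tumors 1 to 4. They were the larger part in all 4 wild-type tumors and the smaller part in all 4 ΔAgo2-labelled tumors. Nearly all of the rest was Adra2a, at 33.1 ± 8.1% against 74.2 ± 9.4% (SD, n = 4 each). The sum itself was 4.2 ± 1.31 TPM in wild-type and 1.32 ± 0.17 TPM in ΔAgo2-labelled tumors (SD, n = 4 each), without overlap. A share of Adra2a must rise when other parts of the sum fall, and its own level did not rise. The shares and the sum hold Adra1b, which was picked on its values, and are given without a test.

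Adrb3, the beta receptor of fat cells, was under the count filter. It was at 2.08 CPM in wild-type tumor 3 and 2.89 CPM in ΔAgo2-labelled tumor 1, and at 0 to 0.143 CPM in the other 6 tumors. The same 2 tumors had the highest summed levels of 6 adipocyte markers, 54.3 and 70.1 CPM, against 9.53 to 23.5 CPM in the others. The part of fat tissue in the level of Adrb3 was not tested.

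**Figure D2:**
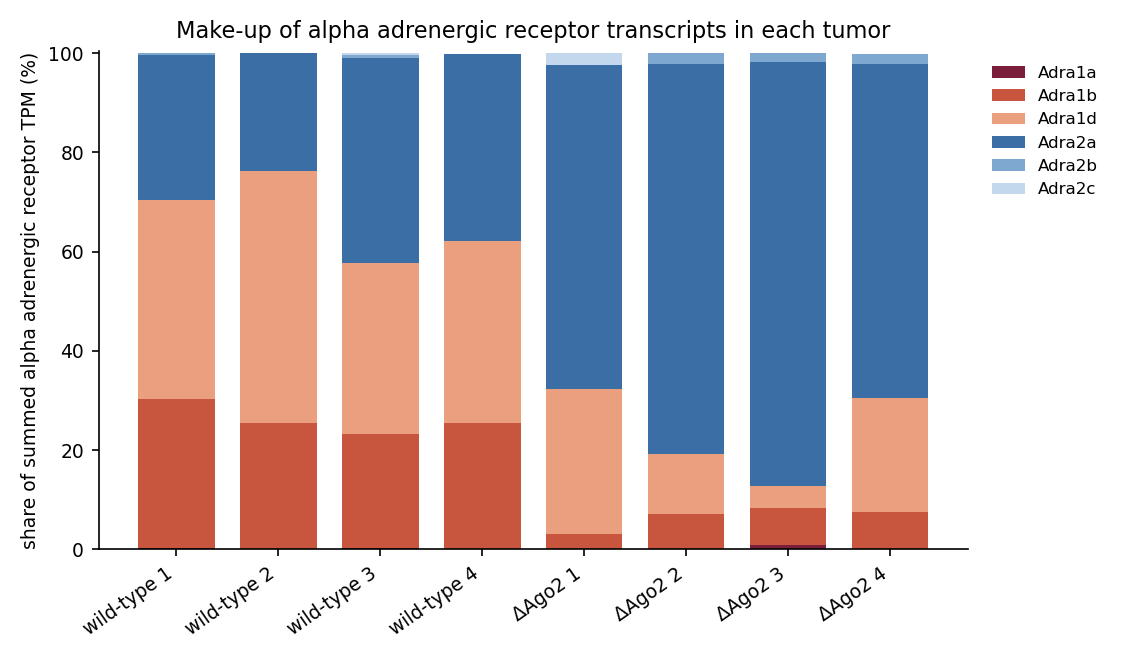
Share of each of 6 alpha adrenergic receptors in their summed TPM (percent, bars stack to 100) in each tumor. The red parts, the alpha-1 receptors, take 57.6 to 76.3% in wild-type and 12.8 to 32.3% in ΔAgo2-labelled tumors, and the blue parts are mostly Adra2a.

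The endothelin receptors had the highest mean TPM of the 9 receptors in both groups. In wild-type tumors the mean of Ednrb rests on tumor 3, at 16.6 TPM, and in wild-type tumor 2 Ednrb (2.16 TPM) was below Adra1d (3.07 TPM). In wild-type tumor 4 Ednrb (1.22 TPM) was below Adra2a (1.26 TPM) and level with Adra1d (1.22 TPM). Ednra (ENSMUSG00000031616.7, chr8:77663031-77724464, minus strand) was at 17.0, 19.9, 18.3 and 13.2 CPM in wild-type and at 9.13, 15.3, 12.1 and 16.7 CPM in ΔAgo2-labelled tumors. The groups overlapped, and the log2 fold change was -0.37 ± 0.25 (SE, 95% interval -0.91 to 0.18, adjusted p = 0.348). This interval leaves out a fall of the size fitted for Adra1d.

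Ednrb (ENSMUSG00000022122.15, chr14:103814625-103844402, minus strand) varied most within the wild-type group. It was at 6.09, 3.24, 24.6 and 2.58 CPM in wild-type and at 4.86, 6.83, 11.3 and 13.7 CPM in ΔAgo2-labelled tumors. Wild-type tumor 3 was far above the other wild-type tumors and raised the mean to 9.12 ± 10.4 CPM (SD, n = 4), next to 9.16 ± 4.03 CPM in ΔAgo2-labelled tumors. Its log2 fold change was -0.02 ± 0.64 (SE, 95% interval -1.43 to 1.39, adjusted p = 0.986). Leaving out wild-type tumor 3 made it 1.17 (adjusted p = 0.108).

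Wild-type tumor 3 was also highest for the Schwann cell and melanocyte markers, at 28.6 CPM summed over 9 genes against 7.74 to 11.1 CPM in the other wild-type and 14.9 to 19.4 CPM in ΔAgo2-labelled tumors. It was likewise highest for the pericyte and smooth muscle markers, at 169 CPM against 72.4 to 103 CPM in the other 7 tumors. For 8 endothelial markers it was at 179 CPM, against 114 to 169 CPM in the others. Their part in the level of Ednrb was not tested.

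The ratio of Ednra to Ednrb within a tumor does not depend on how libraries are scaled. On log2 TPM it was 1.12, 2.26, -0.79 and 1.99 in wild-type and 0.55, 0.80, -0.26 and -0.07 in ΔAgo2-labelled tumors. Ednra was thus the more abundant in 3 of 4 wild-type tumors, and in 2 of 4 ΔAgo2-labelled tumors. The means of 1.15 ± 1.38 and 0.25 ± 0.50 (SD, n = 4 each) differed by -0.89, with p = 0.286 in an exact two-sided permutation test, of which the smallest possible p is 0.0286. Without wild-type tumor 3 the difference was -1.54 and the groups no longer overlapped (exact permutation p = 0.0286, the smallest that the remaining tumors allow).

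**Figure D3:**
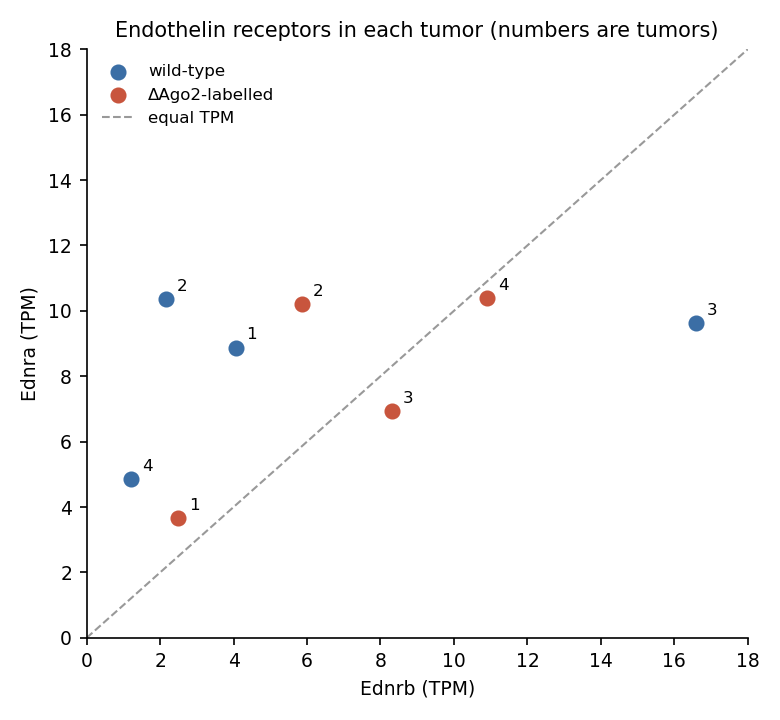
Ednra against Ednrb in each tumor (both in TPM, linear axes), where points are tumors coloured by group, digits their numbers, and the dashed line marks equal levels. Wild-type tumor 3 lies far to the Ednrb side at 16.6 TPM, and wild-type tumors 1, 2 and 4 lie on the Ednra side of the line.

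In order of mean TPM, wild-type tumors ran Ednra (8.43), Ednrb (6.01), Agtr2 (2.50), Adra1d (1.76), Adra2a (1.35), Adra1b (1.08), Agtr1a (0.843), Adrb1 (0.0375) and Adra1a (0.00500). Down to Agtr1a, no neighbours in that order differed by more than the larger of their SDs. In ΔAgo2-labelled tumors the order was Ednra (7.80), Ednrb (6.90), Adra2a (0.968), Agtr1a (0.783), Adra1d (0.235), Adrb1 (0.153), Agtr2 (0.0875), Adra1b (0.0825) and Adra1a (0.00250). There Agtr2 had moved from the third to the seventh place. Agtr2 and Adra1b did not differ beyond their spread in those tumors, nor did Adra1d and Adrb1, or Ednra and Ednrb.

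Over the 9 receptors, 7 passed the count filter. Agtr2, Adra1b and Adra1d were lower without overlap, and Adrb1, under the filter, was higher without overlap. Over all genes tested, 16.4% had groups that do not overlap, 8.36% lower and 8.05% higher. For Agtr2 and Adra1b nothing is read from that share, because their choice used it.

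The genes that make, cut and bind the ligands were then read from lists of each pathway. In the renin-angiotensin list 13 of 16 genes were tested, 1 fell and 0 rose in edgeR, and the median log2 fold change was -0.17 against 0.04 over all genes tested (0.10 for the list without wild-type tumor 3). The gene that fell was Ace, which converts angiotensin I to angiotensin II. It was at 47.3, 60.3, 61.1 and 69.5 CPM in wild-type tumors and at 33.4, 24.5, 32.0 and 32.0 CPM in ΔAgo2-labelled tumors, with no overlap (log2 fold change -0.97 ± 0.20 SE, adjusted p = 0.0299). Its call was lost when wild-type tumor 2 or 4, or ΔAgo2-labelled tumor 2, 3 or 4, was left out (adjusted p from 0.0714 to 0.121), and with the G and C trend removed it was at -0.57 (adjusted p = 0.0834).

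No other gene of that list passed edgeR's test. Of the 13 genes 6 had an unadjusted p under 0.05, and DESeq2 and voom called 5 each. Among those 6, Atp6ap2, Lnpep and Nln were higher (log2 fold change 0.84, 1.18 and 0.47). Ace, Rnpep and Thop1 were lower (-0.97, -0.97 and -1.05). Over all 16061 genes tested, 4281 had an unadjusted p under 0.05, and DESeq2 called 2274 and voom 4476. Agt, the precursor, was at 0.848 ± 0.664 CPM in wild-type and 0.306 ± 0.247 CPM in ΔAgo2-labelled tumors (SD, n = 4 each, log2 fold change -1.48, adjusted p = 0.228). Ren1 had 0 to 3 counts per library, and Agtr1b and Mas1 were at 0 in all 8 libraries.

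In the adrenergic and catecholamine list 5 of 13 genes were tested and 0 were called in edgeR, with a median log2 fold change of -0.31 (0.24 without wild-type tumor 3). At an unadjusted p under 0.05 there were also 0, as in DESeq2 and voom. Th, the rate-limiting enzyme of catecholamine synthesis, had 0 to 9 counts per library, and Dbh, which makes noradrenaline, was at 0 in all. In the endothelin list 3 of 6 genes were tested and 0 were called in edgeR, with a median of -0.53, 0 of them at an unadjusted p under 0.05, 0 in DESeq2 and 1 in voom. Edn1, the main endothelin, was at 0.950 ± 0.439 and 0.646 ± 0.171 CPM, and Ece1, which cuts its precursor, at 47.2 ± 10.9 and 65.1 ± 9.2 CPM (SD, n = 4 each), with adjusted p of 0.439 and 0.191.

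Of 32 genes for signalling behind these receptors (G proteins, phospholipases, adenylate cyclases, receptor kinases, arrestins, RGS proteins), 29 were tested, 1 fell and 0 rose in edgeR, with a median log2 fold change of 0.07. The gene that fell was Gnao1, the Go alpha subunit that is abundant in neurons. It was at 2.70, 3.77, 3.55 and 6.31 CPM in wild-type and at 0.431, 0.483, 0.507 and 0.658 CPM in ΔAgo2-labelled tumors (log2 fold change -2.93 ± 0.37 SE, adjusted p = 0.00323). It was called in all 8 fits that left out a tumor. Gnaq and Gna11, which carry alpha-1 and Agtr1a signals, were at 0.57 (adjusted p = 0.183) and 0.07 (adjusted p = 0.831) on the log2 scale. Over the 4 lists 2 of 50 genes tested were called, or 4%, near the 3.49% of all genes.

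**Figure D4:**
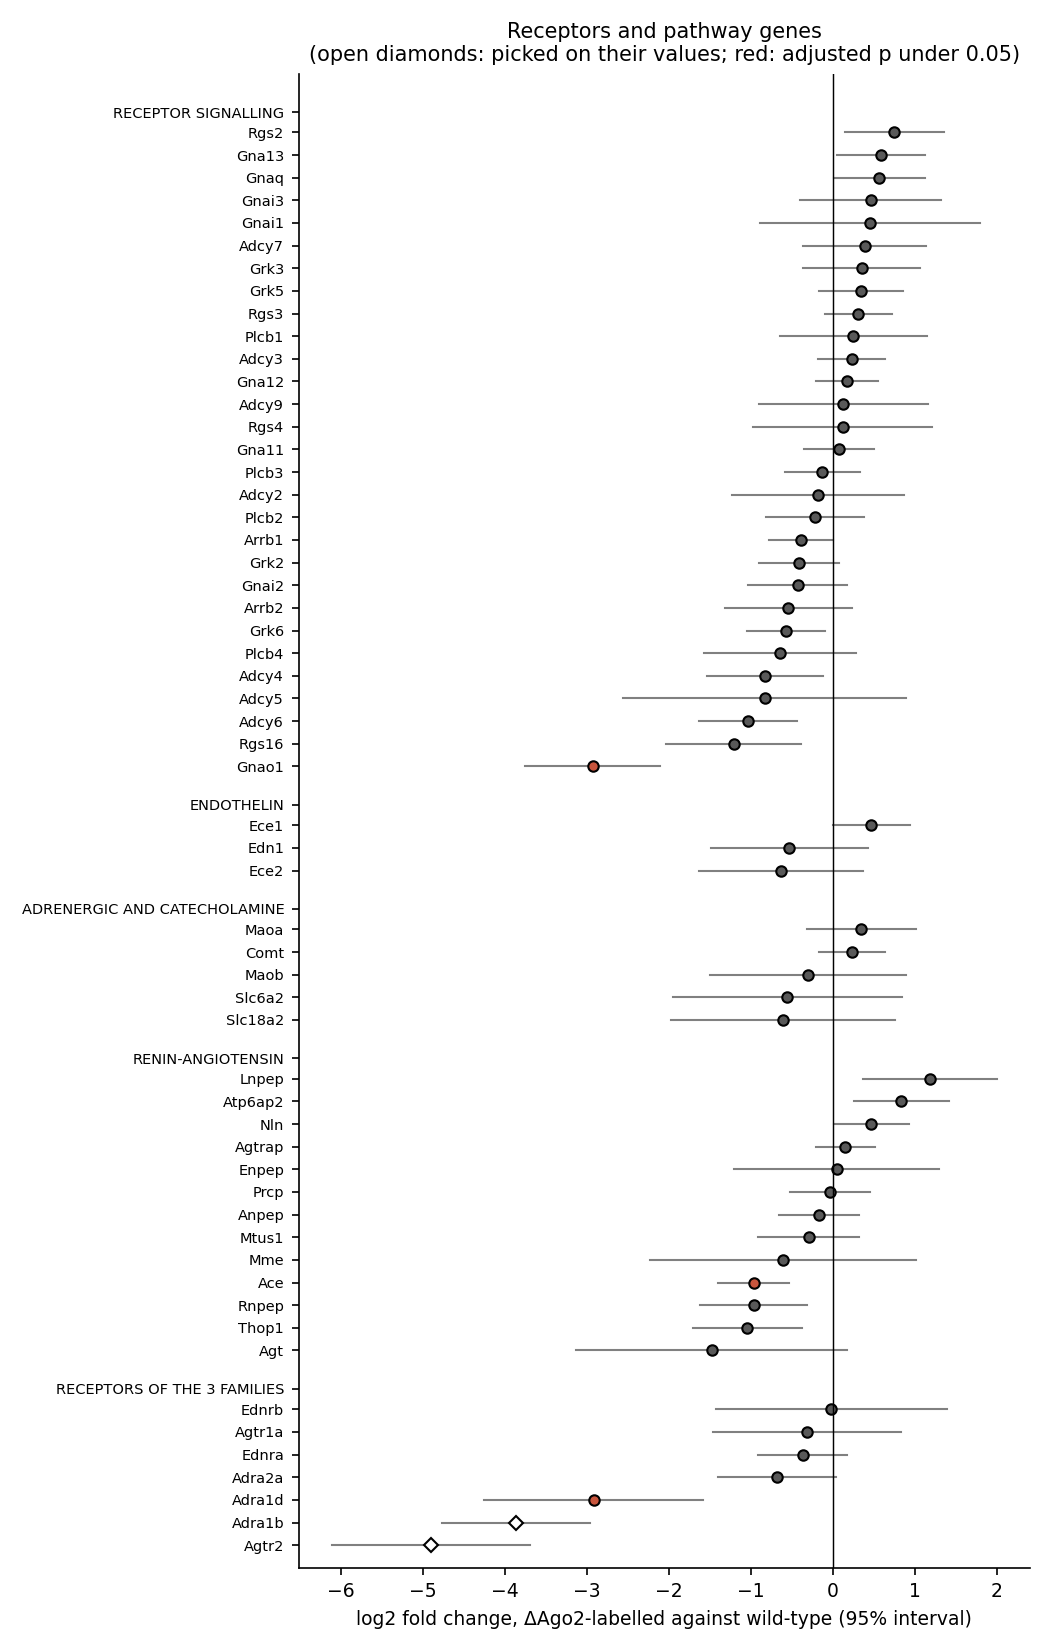
Log2 fold change of ΔAgo2-labelled against wild-type tumors (x axis) for the 7 receptors and 50 pathway genes tested, with 95% intervals from the edgeR fit. Open diamonds are Agtr2 and Adra1b, picked on their values, red points are genes with an adjusted p under 0.05 (Adra1d, Ace and Gnao1), and most other genes lie near 0.

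The genes whose profile over the 8 libraries was most like that of Agtr2 or Adra1b were found among 13072 or 13073 genes with a mean of at least 1 CPM, by the root mean square difference of centred log2 CPM. For Agtr2 they were Lrrn3 (0.338), a leucine-rich repeat protein of neurons, Dtna (0.697), a dystrophin-associated protein, Grb14 (0.891), an adaptor of the insulin receptor, Plac1 (0.945), known from placenta, and Nefm (1.02), a neurofilament subunit. For Adra1b they were Nefm (0.368), Frzb (0.395), a secreted Wnt binder, Dbndd1 (0.419), Plxna4 (0.452), a semaphorin receptor, and Ppp1r9a (0.463), an actin-binding protein of neurons. Nefm was in both sets. Between Agtr2 and Adra1b the difference was 0.923. Since both were picked for the same difference between the groups, a like profile and a gene in both sets follow from the choice. Neither is read as a result.

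Some markers of neurons were lower in the same tumors. Of 8 neuron markers 6 were tested and 3 fell, namely Nefl, Gap43 and Prph, against 2.12% of all genes tested. Tubb3, Snap25 and Stmn2 had negative log2 fold changes and did not pass (adjusted p = 0.243, 0.215 and 0.635). The summed level of the 8 markers was 25.0 to 32.0 CPM in wild-type and 11 to 17.9 CPM in ΔAgo2-labelled tumors, without overlap. The largest part was Tubb3, which did not pass, at 15.39 ± 3.72 and 11.02 ± 2.49 CPM (SD, n = 4 each). Prph came next, at 7.26 ± 3.62 and 1.83 ± 0.39 CPM. No marker was at 0 in all libraries, but Elavl3 and Syt1 were under the count filter. In the same order of groups, Elavl3 averaged 0.0697 and 0.0279 CPM, and Syt1 0.0409 and 0.0391 CPM. Fibroblast markers summed to 4848 to 7173 CPM in wild-type and 2204 to 4579 CPM in ΔAgo2-labelled tumors, also without overlap. Col3a1 made up most of that sum, at 4759 ± 817 and 2931 ± 1047 CPM (SD, n = 4 each). Of the 7 fibroblast genes 1, Fap, fell in edgeR, with 5 at an unadjusted p under 0.05, 3 called by DESeq2 and 4 by voom. By sign 5 were lower and 2 higher, and Pdgfra (log2 fold change 0.68) was a higher gene among those at that unadjusted p. Of all 16061 genes tested, 4281 had an unadjusted p under 0.05, and DESeq2 called 2274 and voom 4476. Over all genes tested, 8.36% were lower without overlap, a share of single genes and not of sums. The part of nerve or stroma in the levels of Agtr2, Adra1b, Adra1d and Gnao1 was not tested.

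In the other marker lists edgeR called Vwf and Krt10. Over all genes tested it called 3.49%, so 0 called in such a short list does not set that list apart from other genes. As background for the counts below, 4281 of all 16061 genes tested had an unadjusted p under 0.05, and DESeq2 called 2274 and voom 4476. For skeletal muscle 0 of 10 genes tested were called by edgeR (median log2 fold change -2.87), with 10 at an unadjusted p under 0.05, 3 called by DESeq2 and 1 by voom. For pericytes and smooth muscle edgeR called 0 of 10 (median -0.59, or 0.16 without wild-type tumor 3), with 4 at that unadjusted p, 0 by DESeq2 and 2 by voom. For adipocytes it called 0 of 6 (-0.01, or 0.82 without that tumor), with 0 unadjusted, 0 by DESeq2 and 1 by voom, and for leukocytes 0 of 7 (0.19), with 2 unadjusted, 1 by DESeq2 and 2 by voom. For Schwann cells and melanocytes it called 0 of 5 (-0.74, or 0.013 without wild-type tumor 3), with 1 unadjusted and 1 by each other tool, and for lung epithelium 0 of 4 (0.84), with 2 unadjusted and 2 by each other tool. The leukocyte genes at that unadjusted p were Ptprc, higher (log2 fold change 1.12), and Cd68, lower (-0.51). The Schwann cell and melanocyte gene at that unadjusted p was Mitf, higher (1.07). The 4 pericyte and smooth muscle genes at that unadjusted p were all lower, namely Acta2 (-0.85), Cspg4 (-0.87), Pdgfrb (-0.52) and Notch3 (-0.82). By sign 8 genes of that list were lower and 2 higher, with wild-type tumor 3 included. Among 8 endothelial genes Vwf fell (median -0.04, or 0.081 without wild-type tumor 3), and among 8 keratinocyte genes Krt10 rose (median 1.03). The keratinocyte markers summed to 566.8, 583.5, 15.2 and 176.7 CPM in wild-type tumors 1 to 4, and to 457.8 to 897.2 CPM in ΔAgo2-labelled tumors. Wild-type tumor 3 was thus the lowest of all tumors. The skeletal muscle sums did not overlap, but without wild-type tumor 3 the median of that list was -0.82. Pericyte and smooth muscle markers, of cells known to carry alpha-1 receptors, summed to 74.2, 103, 169 and 78.0 CPM in wild-type and 94.4, 74.8, 77.7 and 72.4 CPM in ΔAgo2-labelled tumors. Their part in the levels of the alpha-1 receptors was not tested.

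None of the tested genes nearest to Agtr2 and Adra1b on the chromosome was called by edgeR. Both receptors were picked for low levels in ΔAgo2-labelled tumors, so lying under their neighbours follows from that choice. As background, edgeR called 3.49% of all 16061 genes tested, 4281 had an unadjusted p under 0.05, and DESeq2 called 2274 and voom 4476. Of the 5 tested genes nearest on each side of Agtr2, 0 of 10 were called by edgeR (4 at an unadjusted p under 0.05, 2 by DESeq2, 4 by voom). Of these 8 had a positive log2 fold change, and the range was -0.75 (Klhl13) to 2.09 (Slc6a14). They lie far from Agtr2, the closest at 230 kb (Slc6a14) and the farthest at 14400 kb (Dock11). Of the 10 around Adra1b, 0 were called by edgeR (1 at that unadjusted p, 0 by DESeq2, 2 by voom), 8 were positive, and the range was -0.93 (C1qtnf2) to 0.88 (Pttg1). The nearest, Ttc1 and Pwwp2a, were at 0.26 and 0.28. Their lower chromosome coordinates are 45.1 and 92.6 kb under that of Adra1b. Since Adra1b is on the minus strand, both genes lie beyond its 3′ end.

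**Figure D5:**
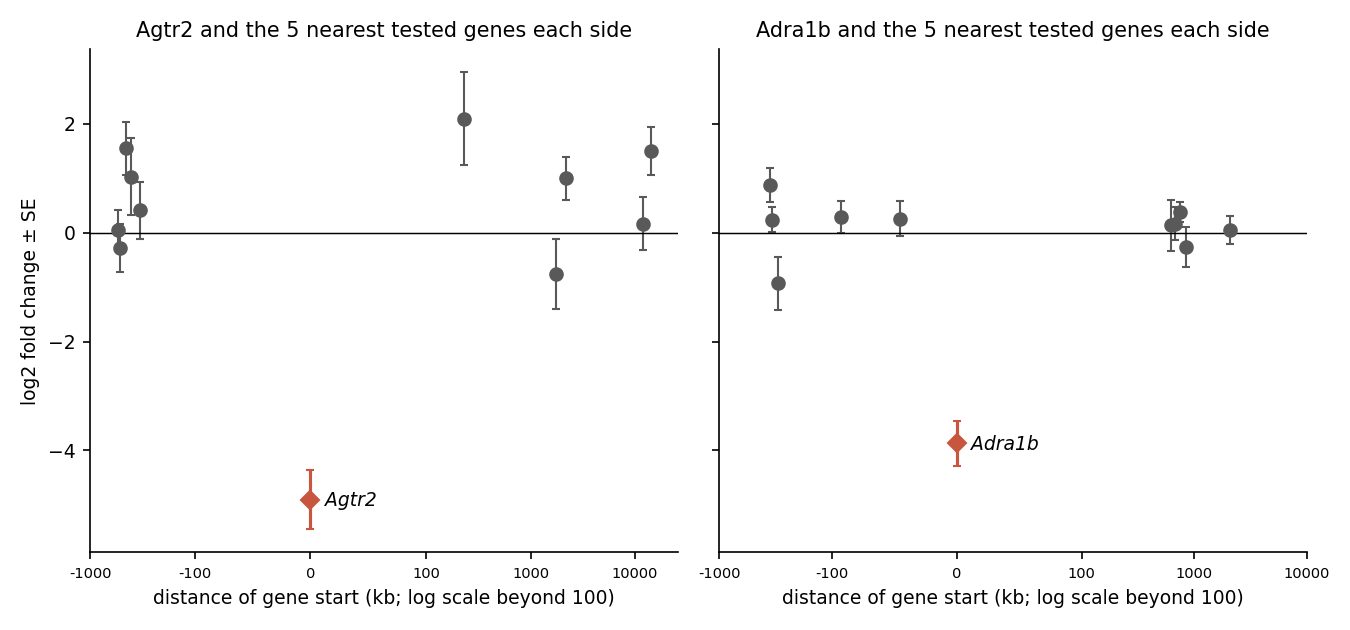
Log2 fold change ± SE (y axis) of Agtr2 (left) and Adra1b (right), as diamonds, and of the 5 nearest tested genes on each side, as points. The x axis is the distance of gene starts in kb (linear within 100 kb, log scale beyond). A start is here the lower chromosome coordinate of a gene, whatever its strand. Both receptors, picked for their low values, lie far under their neighbours, which run from -0.93 to 2.09.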

How the data were processed

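RNA was sequenced from 8 LLC tumors, 4 per genotype, with groups and numbers taken from the sample titles. Per the labels, RNA was taken up in TRIzol, libraries used a stranded Illumina mRNA kit and were read as pairs of 100 bp on a NovaSeq with 50 M reads as the target, and all carry batch label 1. The submitters' processing notes name STAR and mm10. For bulk RNA of cultured cells the study's methods name featureCounts and DESeq2. For the tumors, the strand setting and what was done with multi-mapping reads were not given in the sources used here, so genes with overlapping or near-identical neighbours are uncertain.

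The authors deposited counts, whole numbers per gene and library without normalization, and TPM values, scaled by gene length and library. Identifiers were matched to GENCODE M21, and 99.29% of 55487 matched with their version.

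Genotypes were compared on counts with edgeR 4.0.16 in R 4.3.3 (filterByExpr, TMM, quasi-likelihood test of genotype with no covariate, Benjamini-Hochberg adjustment over all genes tested, threshold 0.05). CPM use TMM-scaled totals, log2 CPM a prior count of 2, and intervals are 95%. The SE was taken from the fold change and its F value. A count of 0 allows up to 3 counts, which covers counting error only. Depth per library is 7903288 to 268564145 counts. Replicate libraries of a group differed by more than sampling noise (chi-square per degree of freedom 39.1 to 734). Replicate numbers were not treated as pairs, since the labels state no pairing. Correlations of same-numbered deviations were -0.236, 0.103, -0.04 and -0.29, which cannot exclude shared handling.

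The receptors, gene lists and rules were chosen with earlier results of these data known. The genes named were the 9 receptors, the pathway genes past the threshold, ligands, converting enzymes and receptors by level, the 5 genes of most similar profile and the 5 tested neighbours on each side. Gnaq, Gna11 and Th were named beside them after their values were seen. Gnas and Plin4 were not analysed here, and some genes of these pathways are not reported here. Alternatives were DESeq2 1.42.0 (Wald test, size factors), total counts, no count filter, limma 3.58.1 (voom with quality weights, or log2 TPM with a pseudocount of 1 or 0.1 and a filter of 0.5 TPM in 4 libraries), a replicate block, thinning to 7903288 counts, removal of the GC trend (a curve for each library, drawn through genes averaging 50 counts or more), and leaving out each tumor. The GC content is that of the longest transcript. The procedure was tested on simulated data. Fold changes on the log2(TPM + pseudocount) scale understate the change of low genes.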

Additional observations from a re-analysis of the deposited data

Results flagged for a closer look

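In ΔAgo2-labelled tumor 1, Adra2a was at 1.87 CPM, away from the 1.41 to 1.45 CPM of the other 3 tumors of its group, with a gap that took up 0.900 of the group's range on the log scale, above Dixon's critical value at 95%. Among 20 groups of 4 values examined, about 1 such gap is due by chance.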

How the results depend on the processing

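Agtr2 and Adra1b kept a negative log2 fold change in all 19 alternatives that could fit them, and neither passed the filter at equal depth, where thinned libraries held 104 and 41 counts in wild-type against 2 and 2 in ΔAgo2-labelled tumors. Across the alternatives, Agtr2 ran from -5.59 to -1.58 and Adra1b from -3.98 to -0.93, both ends nearest 0 coming from log2(TPM + 1), which shrinks low genes. Adra1d stayed negative in all 19 and was called in 8. It lost its call under the replicate block (adjusted p = 0.121), with the GC trend removed (0.0560), with both (0.158), and on TPM (0.0532, 0.0698 and, with no filter, 0.123). Adra2a, Ednra, Ednrb and Agtr1a were called in none of the alternatives run.

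The number of genes called was 560 (219 higher, 341 lower). It was 983 (515 higher) with no count filter, 2274 (1122 higher, 1152 lower) with DESeq2's Wald test and 4476 (2393 and 2083) with voom. It was 153 (77 and 76), 107 (41 and 66) and 77 (33 and 44) in limma on log2(TPM + 1), log2(TPM + 0.1) and log2(TPM + 1) with no filter. With the replicate block it was 70 (13 higher and 57 lower), and with the block and the GC trend removed 285 (129 and 156). The labels link tumors across the groups only by replicate number, and 0 libraries correlated best with their own number. Leaving out a tumor gave 88 to 1793 genes, 20 to 979 of them higher and 68 to 814 lower. The number of context receptors called, 1, became 0 with the block, with the GC trend removed, with both, and in all 3 fits on TPM, and was 0 to 1 without each tumor. It was also 0 at equal depth, where Adra1d (42 counts against 5) was under the filter and not tested. The number of pathway genes called, 2, became 8 with DESeq2, 13 with voom, 1 with the block and with block and GC, 0 in both filtered TPM fits and 1 in the unfiltered, and was 1 to 5 without each tumor. The causes were not tested.

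Ednrb, near 0 in the report, turned positive with total counts (0.038), no filter (0.022), voom (0.56), the replicate block (0.43), block and GC (0.047), TPM + 1 (0.52, filtered or not) and TPM + 0.1 (0.70), and without wild-type tumor 3 (1.17) or ΔAgo2-labelled tumor 1 (0.18) or 2 (0.088), and ran from -0.30 to 1.17 without each tumor. Agtr1a did so with the block (0.0016), TPM + 1 (0.025, filtered or not) and TPM + 0.1 (0.17), and without wild-type tumor 3 (0.53), and ran from -0.56 to 0.53 without each tumor. Gnao1 lost its call on TPM (adjusted p = 0.0519 and 0.0656). The Ednra to Ednrb ratio differed by -1.54 to -0.52 without each tumor, and reached its smallest possible p, 0.0286, by exact permutation only without wild-type tumor 3. Agtr2, Adra1b and Adra1d had 8 to 10 counts in the shallowest library, which limits their precision.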
